A study of Mus musculus with 6 samples.

Results

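Immediate-early genes are switched on within minutes of a signal at the T cell receptor (TCR), without the need for new protein. The 10 members described here were the rows of the Treg cell count matrix named for the NR4A orphan nuclear receptors Nr4a1, Nr4a2 and Nr4a3, the EGR zinc finger factors Egr1, Egr2 and Egr3, and the AP-1 subunits Fos, Fosb, Jun and Junb. They were chosen by symbol from the 24421 genes of the matrix, and all 10 were among the 11658 genes that passed the filter on low counts. Calcium and MAP kinase signals reach these genes through SRF with its ternary complex and MRTF partners, CREB, MEF2 and NFAT proteins, which are present in the cell before the signal comes. The NR4A receptors are used as reporters of antigen receptor signaling and help to keep Treg cells stable, EGR2 and EGR3 are known as brakes on T cell activation that act downstream of NFAT, and AP-1 is the partner of NFAT at many activation genes. Their messages are short-lived, and the FOS and JUN genes are also well known to respond to the handling of tissue and cells.

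RNA-seq libraries were made from CD4+YFP+ Treg cells of the spleen of female C57BL/6 mice aged 8 to 11 weeks, without any treatment of the sorted cells. Both genotypes carried the Foxp3Cre allele, in which the Foxp3 gene drives a Cre recombinase marked by a yellow fluorescent protein. The 3 WT libraries came from Foxp3Cre mice, and the 3 KO libraries from Foxp3Cre miR-142fl/fl mice, in which the microRNA gene Mir142 is deleted in cells that express Foxp3 while the other cells of the animal keep it. The comparison asked which genes of miR-142–deficient Treg cells differ from those of miR-142–sufficient ones. The paper reports that Foxp3Cre miR-142fl/fl mice develop a fatal autoimmune disease, with more activated T cells that make more interferon gamma. It gives as a caveat that such inflammation might itself alter the genes that Treg cells express. KO and WT libraries can therefore also differ through the disease of the host, and its part in the differences below was not tested. Because the mice were not given an antigen, the levels below are those of the sorted cells as they came from the spleen, and the libraries cannot tell apart fewer cells with a message and less message per cell.

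Total counts ranged from 13883069 to 24042994 per library, and levels are given as CPM, counts scaled to the total of their library. The lowest count of any member in a library was 132. Mir142b, the antisense annotation at the deleted locus, lay between 4.20 and 9.49 CPM in WT and between 0.337 and 0.376 CPM in KO, and Mir142 itself had 0 counts in all 6 libraries. The 10 Treg cell markers, among them Foxp3, Cd4 and Ctla4, summed to between 6399 and 6754 CPM in WT and between 7727 and 8836 CPM in KO. Without Il2ra, which was higher in KO, the other 9 summed to between 5562 and 6008 CPM in WT and between 5540.2 and 6047 CPM in KO. The like sums hid changes in both directions. Tnfrsf18 and Tnfrsf4 were also called higher in KO by the test below (log2 fold changes 0.81 and 0.60). Of those not called, Foxp3 was higher in all KO than in all WT libraries, and Cd4 and Cd3e were lower. Ctla4 ranged from 330 to 1177 CPM in WT. KO replicate 1 stood apart. Its 13 neutrophil markers summed to 1005 CPM against at most 48.8 elsewhere, and its 12 monocyte and macrophage markers to 2954 CPM against at most 79.3. B cell markers summed to 294 CPM there against at most 43.4, dendritic cell markers to 142 against at most 1.24, CD8 T and NK cell markers to 38.1 against at most 18.8, and erythroid markers to 34.6 against at most 3.46. KO replicates 2 and 3 also lay above every WT library for 2 kinds of marker. Their neutrophil markers summed to 16.0 and 48.8 CPM, against at most 6.20 in WT. Most of this was Mpo (5.91 and 31.7 CPM) and Mmp9 (8.50 and 7.89 CPM). S100a8 stood at 0 and 0.877 CPM there, and S100a9 at 0 and 1.21 CPM. Their monocyte and macrophage markers summed to 79.3 and 19.4 CPM, against at most 12.1 in WT. Across the 11658 genes, edgeR's quasi-likelihood test at a false discovery rate (FDR) under 0.05 called 1350 genes higher in KO, or 11.6%, and 847 lower, or 7.27%. With no TMM step, on library totals only, 1064 were higher and 1201 lower. Every fold change below is KO over WT from that test, with its FDR taken over all genes tested.

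The sequences of the microRNA that was deleted are shown first, because its 2 mature strands can pair with sites in the 3′ untranslated regions (UTRs) of these genes. Both come from RefSeq (GRCm38.p6, chromosome 11, plus strand), with the seed, bases 2 to 8, in capitals. miR-142a-3p lies at chr11:87756903-87756925 and miR-142a-5p at chr11:87756867-87756887.
miR-142a-3p: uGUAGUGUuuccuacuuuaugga
miR-142a-5p: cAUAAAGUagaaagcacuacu

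Perfect 7-base matches to either seed, opposite bases 2 to 8 or opposite bases 2 to 7 followed by an A, were searched in the longest annotated 3′ UTR of each member (GENCODE vM21, GRCm38). Egr2 was the only one of the 10 with such a site for miR-142-3p, ACACTAC at chr10:67541052-67541058, in a 3′ UTR of 1200 bases. These 3p sites were present in 12.2% of the 10786 tested genes with a 3′ UTR that could be read. Matches to the other seed of this strand, named miR-142-3p.2 in the paper, were not searched. Egr3, Nr4a3, Fos and Fosb each held 1 site for miR-142-5p, against 23.5% of those genes, and Nr4a1, Nr4a2, Egr1, Jun and Junb held none of these sites. The stretches around the sites of the pair of EGR genes that fell in KO, Egr2 and Egr3, are printed with the site in capitals, on the plus strand of chr10:67541041-67541070 and of chr14:70081638-70081667.
Egr2 3′ UTR, 3p site: ccgagctgccaACACTACcacccttccctg
Egr3 3′ UTR, 5p site: tttttaaagtcACTTTATgcgtttcccacg

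The control regions of 1 gene of each family are shown for what the members share. RefSeq (GRCm38.p6) gave windows from 250 bases before to 50 bases after a start site for 8 of the 10 members, and Egr1 and Egr3 were not among them. The half-site bound by CREB, TGACG on either strand, was present in a window of 7 of these 8 genes, all but Jun, and in 23.0% of the 27025 genes with a window. The full CREB site TGACGTCA, which contains the half-site, was in none of the 8 and in 2.03% of all. A CArG box, the element bound by SRF, was found in its strict form for Egr2 alone of the 8, and for 1.81% of all genes. Looser matches and bases outside the windows were not searched, and Egr2 had more windows than the other members. An EGR site, GCGNGGGCG on either strand, was present in the windows of Nr4a1, Nr4a2 and Fosb and of 6.27% of all genes, and the AP-1 site TGANTCA and the NR4A element AAAGGTCA in none of the 8, against 8.97% and 1.7%. The 250 bases before the start site are printed for Egr2 (chr10:67537619-67537868), Nr4a1 (chr15:101266596-101266845) and Fos (chr12:85473640-85473889), all on the plus strand, with CREB half-sites and the CArG box in capitals. For Egr2 and Nr4a1 they lie in an intron of longer annotated transcripts of the same gene, and for Fos upstream of the gene.
Egr2: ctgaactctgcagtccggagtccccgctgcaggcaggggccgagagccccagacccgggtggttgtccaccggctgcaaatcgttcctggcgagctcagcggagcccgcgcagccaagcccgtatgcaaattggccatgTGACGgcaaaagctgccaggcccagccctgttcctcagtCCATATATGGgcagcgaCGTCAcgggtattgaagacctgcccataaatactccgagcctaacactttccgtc
Nr4a1: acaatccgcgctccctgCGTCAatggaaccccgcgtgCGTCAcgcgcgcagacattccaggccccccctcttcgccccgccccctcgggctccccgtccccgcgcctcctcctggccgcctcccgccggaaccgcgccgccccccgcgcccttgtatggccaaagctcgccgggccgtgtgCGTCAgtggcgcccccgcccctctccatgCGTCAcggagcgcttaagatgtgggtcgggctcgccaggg
Fos: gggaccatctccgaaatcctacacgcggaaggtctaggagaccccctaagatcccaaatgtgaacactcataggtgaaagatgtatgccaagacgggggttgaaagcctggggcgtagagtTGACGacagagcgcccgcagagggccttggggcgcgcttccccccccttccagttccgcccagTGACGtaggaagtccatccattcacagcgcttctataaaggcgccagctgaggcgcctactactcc

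Of the 10 immediate-early genes, Egr2 and Egr3 were lower in KO Treg cells and 0 were higher. Over all genes tested, 7.27% were called lower and 11.6% higher. No other member reached an unadjusted p under 0.05 in either direction, and DESeq2 called the same number in each direction. The 8 genes that did not pass fell into a pair with less spread, Nr4a3 and Egr1, and 6 genes whose 3 WT libraries differed from one another by more than 6-fold. The median log2 fold change of the 10 was -0.56, against 0.02 for all genes tested, with 7 values below 0 and 3 above.

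**Figure D1:**
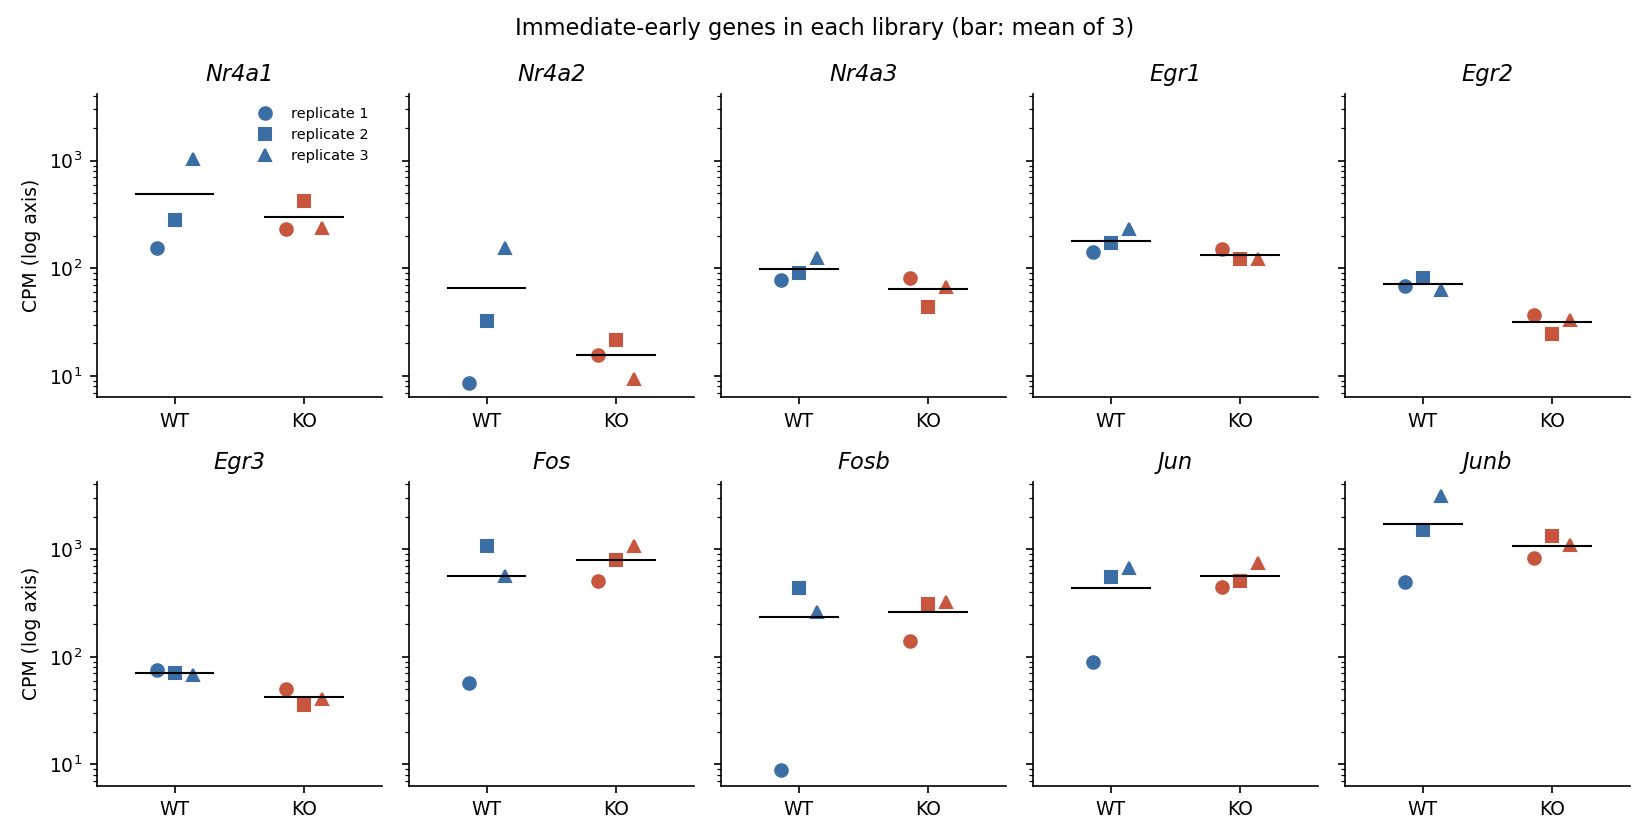
CPM of each of the 10 genes in the 3 WT (blue) and 3 KO (red) libraries on a log axis, with the replicate number given by the symbol and the group mean as a bar. Egr2 and Egr3 are the 2 genes whose KO libraries all lie below the WT libraries, and Fos, Fosb and Jun have 1 low WT point, replicate 1.

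EGR family. Egr2 encodes a zinc finger factor that limits T cell activation and takes part in anergy, the unresponsive state of T cells that see antigen without costimulation. It had 68.9, 80.4 and 62.9 CPM in WT replicates 1, 2 and 3 and 36.6, 24.7 and 32.9 CPM in KO replicates 1, 2 and 3. The groups did not overlap. The libraries differed by at most 1.28-fold in WT and 1.48-fold in KO, against medians of 1.19 and 1.30 over all genes tested. The means were 70.8 ± 8.89 CPM and 31.4 ± 6.09 CPM (SD, n = 3 per group), and Egr2 fell by 1.09 on the log2 scale (SE 0.16, FDR = 0.00562), to 0.470 times the WT level. It had the largest called change of the 10 and ranked at position 457 of the 11658 genes by p-value.

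Egr3, which shares targets and the anergy function with Egr2, had 74.9, 70.8 and 67.4 CPM in WT and 50.3, 35.6 and 40.6 CPM in KO. All 3 WT libraries lay above all 3 KO libraries here too. From 71.0 ± 3.75 to 42.2 ± 7.46 CPM (SD, n = 3 per group), Egr3 fell by 0.67 on the log2 scale (SE 0.13, FDR = 0.0151), to 0.629 times the WT level. The WT libraries of Egr3 differed by at most 1.11-fold, less than the 1.19-fold that was the median over all genes tested. Its KO libraries differed by at most 1.41-fold, more than the KO median of 1.30-fold.

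Egr1, the member of the family that responds in almost every cell type, had 141, 171 and 231 CPM in WT and 151, 122 and 122 CPM in KO. KO replicate 1 lay among the WT libraries, and the difference did not pass the test (log2 fold change -0.38, SE 0.19, FDR = 0.214, 95% confidence interval from -0.83 to 0.08). Whether Egr1 differed in its change from Egr2 was not tested.

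KO replicate 1, the library with the highest sums of markers of other cells, held the highest KO value of all 3 EGR genes. Without KO replicate 1 the log2 fold changes were -1.23 for Egr2 (FDR = 0.00239) and -0.83 for Egr3 (FDR = 0.00221). The KO libraries left in that fit still had neutrophil and macrophage marker sums above those of WT, the neutrophil sums mostly from Mpo and Mmp9. The call of Egr2 held whichever library was left out, with values between -1.23 and -0.95. That of Egr3 was lost without WT replicate 1 (FDR = 0.0533), without WT replicate 2 (FDR = 0.0671) and without WT replicate 3 (FDR = 0.0518), at log2 fold changes between -0.70 and -0.66. The count of 2 lower members, 20.0% of the 10, compares with the 7.27% called lower over all genes, and became 1 in each of those fits.

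**Figure D2:**
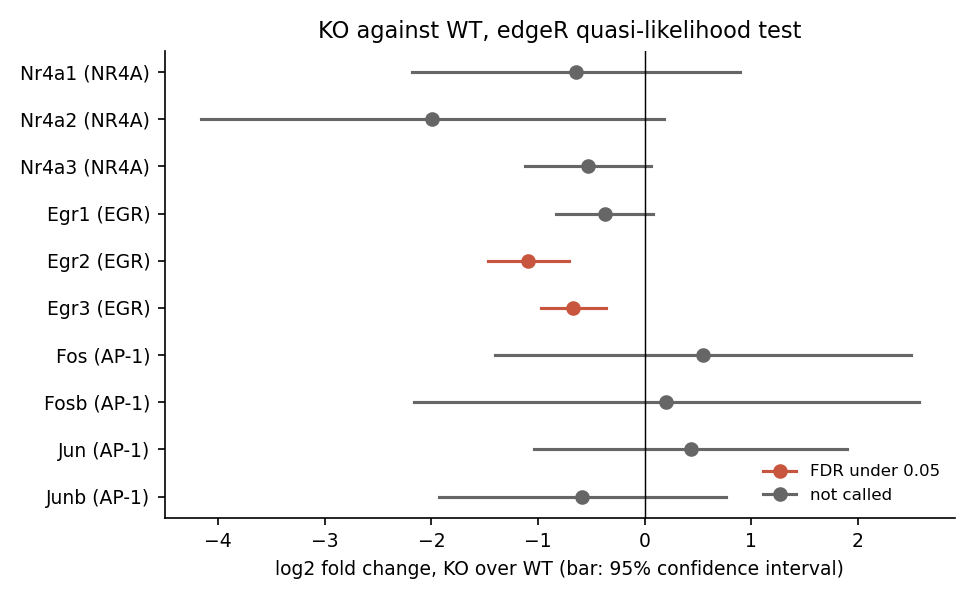
Log2 fold change of KO over WT for each member with its 95% confidence interval, in red where the FDR was under 0.05. The intervals of Egr2 and Egr3 lie below 0, and those of Fos, Fosb and Nr4a2 are the widest.

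By groups that did not overlap, 2 of the 10 had all KO libraries below all WT libraries, a share below the 25.9% of all genes tested, and 0 had all above, against 16.7%. Egr2 and Egr3 were the 2, and they were the members that also varied least between WT mice.

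NR4A family. Nr4a1, whose product is an early sensor of TCR signal strength, had 156, 279 and 1036 CPM in WT and 233, 420.2 and 237 CPM in KO. WT replicate 3 lay far above the other 5 libraries and WT replicate 1 was the lowest of all 6. It did not pass (log2 fold change -0.65, SE 0.66, FDR = 0.528), and without WT replicate 3 the value was 0.53 (FDR = 0.404).

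Nr4a2 had the lowest mean level per length of the members in both groups. It had 8.52, 32.2 and 155 CPM in WT and 15.5, 21.7 and 9.44 CPM in KO. Its WT libraries spanned 18.2-fold, and all 3 KO libraries lay inside that span. The exact binomial 95% intervals of WT replicate 1 (7.13 to 10.1 CPM) and KO replicate 3 (7.95 to 11.1 CPM) overlapped. The log2 fold change of -1.99 was the most negative of the 10 but did not pass the test (SE 0.93, FDR = 0.175), and it was -0.32 without WT replicate 3 (FDR = 0.771).

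Nr4a3 was steadier. It had 78.4, 89.6 and 124 CPM in WT and 80.9, 43.4 and 66.6 CPM in KO, with KO replicate 1 and WT replicate 1 within counting error of each other. The log2 fold change was -0.54 (SE 0.25, FDR = 0.179), and without KO replicate 1 it was -0.76 (FDR = 0.0567).

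AP-1 family. Fos, the partner of the JUN proteins that is made anew at each stimulus, had 56.9, 1076 and 559 CPM in WT and 506, 787 and 1068 CPM in KO. WT replicate 1 was 18.9-fold below WT replicate 2, and the 5 other libraries lay between 506 and 1076 CPM. No difference between the groups was called (log2 fold change 0.55, SE 0.83, FDR = 0.683), and the value was -0.019 without WT replicate 1.

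Fosb, a FOS relative, followed the same order with a wider range, at 8.91, 437 and 260.0 CPM in WT and 139.6, 311 and 325 CPM in KO. The exact binomial 95% interval of its level in WT replicate 1, which covers counting error only, was 7.48 to 10.5 CPM. WT replicates 1 and 2 differed by 49.0-fold. Its log2 fold change was 0.20 (SE 1.01, FDR = 0.908), with a confidence interval from -2.16 to 2.57, and was -0.39 without WT replicate 1.

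Jun had 89.4, 550.4 and 673 CPM in WT and 446, 501 and 742 CPM in KO. Again the 5 libraries other than WT replicate 1 lay close together, within 1.66-fold of one another. Jun did not pass (log2 fold change 0.43, SE 0.63, FDR = 0.667), with -0.081 without WT replicate 1.

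Junb, which counters JUN at some genes and is abundant in Treg cells, had 499, 1492 and 3132 CPM in WT and 819, 1333 and 1088 CPM in KO. WT replicate 1 was the lowest and WT replicate 3 the highest of all 6 libraries, as for Nr4a1. The log2 fold change was -0.59 (SE 0.57, FDR = 0.512), and 0.19 without WT replicate 3.

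**Figure D3:**
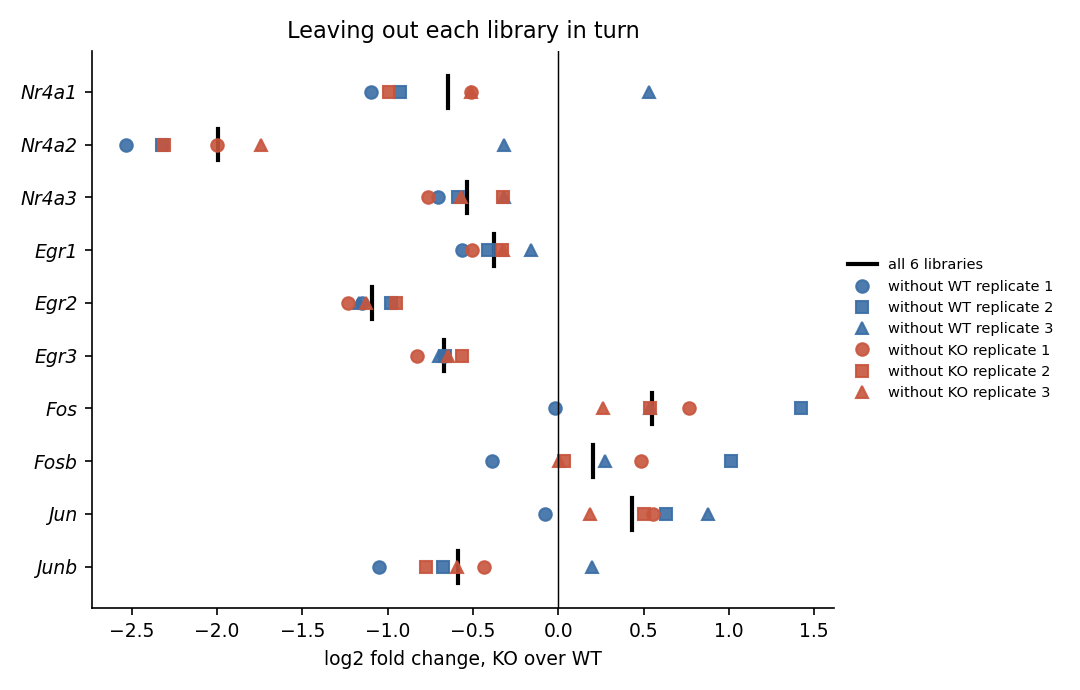
Log2 fold change of KO over WT with all 6 libraries (black bar) and with each library left out in turn (WT blue, KO red, replicate number by symbol). Without WT replicate 1 the values of Fos, Fosb and Jun cross 0, without WT replicate 3 those of Nr4a1 and Junb do, and those of Egr2 stay between -1.23 and -0.95.

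A wide spread between mice of 1 genotype was shared by 6 of the 10 genes. In WT the ratio of the highest to the lowest library was 49.0 for Fosb, 18.9 for Fos, 18.2 for Nr4a2, 7.53 for Jun, 6.66 for Nr4a1 and 6.28 for Junb. The smallest of these ratios, that of Junb, lay above 99.8% of those of the genes tested, whose median was 1.19. In KO the same ratios were lower, between 1.63 and 2.33 for the same 6 genes, while the median over all genes was higher, at 1.30. Over the 10 members the median was 6.47 in WT and 1.73 in KO. The difference in spread between the genotypes was not tested, and WT replicate 1 was the lowest WT library for all 6, while the highest was WT replicate 2 for Fos and Fosb and WT replicate 3 for the other 4. Egr2 and Egr3 had WT ratios of 1.28 and 1.11 in the same libraries. The cause of the wide spread was not tested.

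**Figure D4:**
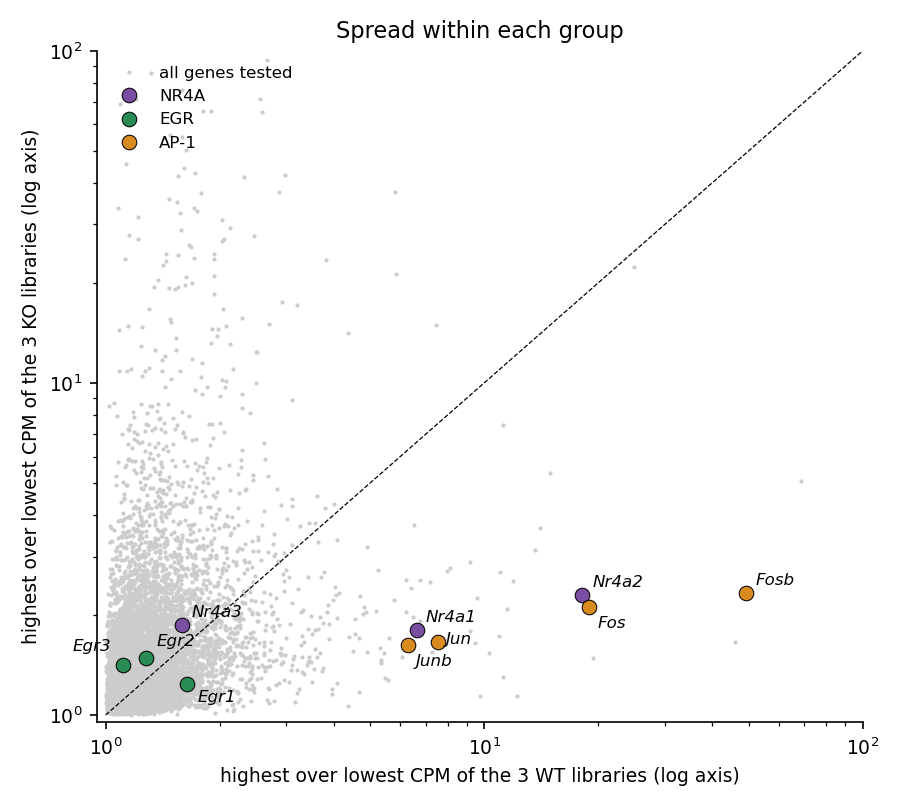
Ratio of the highest to the lowest CPM among the 3 WT libraries (x) and among the 3 KO libraries (y), both on log axes, for all genes tested (grey) and the members (coloured by family), with the line of equal spread dashed. The 4 AP-1 genes with Nr4a1 and Nr4a2 lie far to the right. The EGR genes and Nr4a3 lie further left, but Egr1 and Nr4a3 were still at percentiles 93.9 and 92.6 of WT spread.

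The members did not move as a single block across the 6 libraries. As a description over 6 libraries, with the group difference left in, Pearson's r of log2 CPM was 0.99 between Fos and Fosb, 0.97 between Fosb and Jun and 0.97 between Egr2 and Egr3. It was 0.93 between Nr4a1 and Nr4a2 and 0.94 between Nr4a1 and Junb, and for Junb it was 0.91 with Nr4a2, 0.65 with Fos and 0.39 with Nr4a3. Between Egr2 and Fos it was -0.36. In WT replicate 3 against WT replicate 2, Nr4a2 was 4.82-fold, Nr4a1 3.71-fold and Junb 2.10-fold higher, while Fos was at 0.520 and Fosb at 0.595 of the level. The NR4A genes summed to 243, 401 and 1315 CPM in WT and 329, 485 and 313 in KO, the AP-1 genes to 654, 3555 and 4624 in WT and 1911, 2932 and 3222 in KO. The EGR genes summed to 285, 322 and 361 CPM in WT and 238, 182 and 195 in KO, the only family whose sums did not overlap.

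Levels can be compared between genes only per length, as CPM per kilobase of exons (RPKM, with exon lengths of GENCODE vM21). In WT the order of the means was Junb (742 RPKM), Fos (239.8), Nr4a1 (139.8), Jun (137), Egr1 (40.3), Fosb (37.7), Egr2 (20.8), Nr4a3 (16.3), Egr3 (16.1) and Nr4a2 (16.1). Junb was the highest of the 10 within each of the 6 libraries, at 217, 648 and 1361 RPKM in WT. The next 3, Fos, Nr4a1 and Jun, overlapped between WT libraries, from 24.2 to 458 RPKM for Fos, 44.4 to 295 for Nr4a1 and 28.0 to 211 for Jun. Egr1 lay between 31.4 and 51.4 RPKM in WT, above all WT values of Egr2 (18.5 to 23.7) and Egr3 (15.3 to 17.0), and the values of Egr2 lay above those of Egr3. In KO the first 2 kept their places, Junb at 469 ± 112 and Fos at 335 ± 119 RPKM, while Egr2 (9.24 ± 1.79) and Egr3 (9.57 ± 1.69) came to the same level and the lowest was Nr4a2 (3.83 ± 1.51; SD, n = 3). All 10 genes lie on different chromosomes or far apart, except that Nr4a3 (chr4:48045153-48086447) and Jun (chr4:95049034-95052222) share chromosome 4. Egr2 spans chr10:67535475-67542188, Egr3 chr14:70077203-70082614 and Fos chr12:85473890-85477273 on the plus strand of GRCm38.

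The partners of these factors were read from the same fit. Of 11 other AP-1 and EGR partners, 7 were tested. Over all genes tested, 11.6% were called higher and 7.27% lower. Of the 7 partners, 1 rose and 1 fell, or 28.6% called. Both encode corepressors that bind EGR proteins. Nab1 had 90.4, 110.1 and 98.3 CPM in WT and 211, 159 and 164 CPM in KO, and rose by 0.92 on the log2 scale (SE 0.14, FDR = 0.00616). Nab2, itself induced by EGR factors, had 113, 94.2 and 98.3 CPM in WT and 66.7, 47.9 and 71.0 CPM in KO, and fell by 0.64 on the log2 scale (SE 0.15, FDR = 0.0249). Neither gene's groups overlapped. Nab1 kept its call whichever library was left out, and Nab2 lost it without WT replicate 1, 2 or 3, with an FDR between 0.0727 and 0.0772. The AP-1 genes Batf (-0.19, FDR = 0.521) and Jund (-0.13, FDR = 0.721) did not pass on the log2 scale of fold change. Fosl2 was at 104 CPM in WT replicate 3 against at most 26.3 CPM in the other libraries, and Egr4 was below the filter, at no more than 1.52 CPM.

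Of 13 upstream transcription factors, 4 fell and 0 rose, with 0 rises also at an unadjusted p under 0.05 and by DESeq2. This was 30.8% called, against 11.6% of all genes tested called higher and 7.27% called lower. The median log2 fold change of the list was -0.22. Srf, which binds CArG boxes, had 157, 138 and 139 CPM in WT and 106, 89.9 and 97.3 CPM in KO, and fell by 0.48 on the log2 scale (SE 0.09, FDR = 0.0134). Mkl1, now named Mrtfa, the actin-regulated cofactor of SRF, fell by 0.54 (SE 0.10, FDR = 0.0126), from 216 ± 12.8 to 140.0 ± 12.9 CPM. Nfatc1 had 530.4, 508 and 535 CPM in WT and 374, 288 and 281 CPM in KO, and fell by 0.65 (SE 0.13, FDR = 0.0146). Nfatc3 fell by 0.49 (SE 0.13, FDR = 0.0417), while Nfatc2 (-0.07), Creb1 (-0.22), Mef2a (0.43) and Mef2d (0.00) did not pass. The WT libraries of these factors differed by at most 1.69-fold. The count of 4 became 0 without WT replicate 3 and 1 without WT replicate 2.

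Of 36 other early response genes, 2 rose and 0 fell, or 5.56% called. Over all genes tested, 11.6% were called higher and 7.27% lower. Dusp6, a phosphatase of ERK kinases, had 40.1, 78.4 and 51.1 CPM in WT and 108, 119 and 87.0 CPM in KO (log2 fold change 0.96, SE 0.26, FDR = 0.0397). Ier3, a stress-induced survival gene, was low, with 8, 16 and 13 counts in WT and 142, 30 and 76 in KO (log2 fold change 3.03, SE 0.49, FDR = 0.00753), and was highest in KO replicate 1. Ier3 fell below the filter whichever KO library was left out, and Dusp6 lost its call in 5 of the 6 fits that left out a library. At an unadjusted p under 0.05, 4 were higher and 2 lower, and DESeq2 called 3 higher and 1 lower. The median log2 fold change was -0.05.

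Among the WT libraries, these 36 genes were ordered as Nr4a1, Nr4a2 and Junb were. WT replicate 1 was the lowest of the WT libraries for 35 of the 36 and WT replicate 3 the highest for 35, the exceptions being Myc and Dusp6. Over all genes tested, WT replicate 1 was the lowest for 25.7% and WT replicate 3 the highest for 25.4%. Of the 10 members, WT replicate 1 was the lowest for 8 and WT replicate 3 the highest for 6, the exceptions to the first being Egr2 and Egr3. For Dusp1, another ERK and JNK phosphatase, the WT levels were 146, 683 and 1064 CPM against 532, 825 and 625 CPM in KO. Cd69, the early activation receptor, had 87.3, 179 and 286 CPM in WT and 126, 257 and 129 CPM in KO. Zfp36, which speeds the decay of short-lived messages, had 322, 843 and 1063 CPM in WT and 841, 1135 and 1055 CPM in KO. The median ratio of WT replicate 3 to WT replicate 1 was 2.95 over the list and 6.47 over the members, against 0.952 over all genes.

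Heat shock genes, which respond to stress of the cells, were lowest in WT replicate 1 among the WT libraries for 11 of the 11 tested, and highest in WT replicate 3 for 7. Their sum over 12 genes was 2102, 2979.5 and 3288 CPM in WT and 1904, 1605 and 2633 CPM in KO. None was called in either direction, against 11.6% of all genes tested called higher and 7.27% lower. At an unadjusted p under 0.05, 1 (Hsph1) was lower, DESeq2 called 0, and the median log2 fold change of the list was -0.58. In KO replicate 3, Hspa1a and Hspa1b stood at 18.9 and 60.7 CPM against at most 1.34 CPM in the other KO libraries. Among the members, only Fos, Fosb and Jun were highest of the KO libraries there. KO replicate 1 was the highest KO library for 4 members and KO replicate 2 for 3. Without KO replicate 3, 3 heat shock genes were called lower. The part of cell handling in the levels of the members was not tested.

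**Figure D5:**
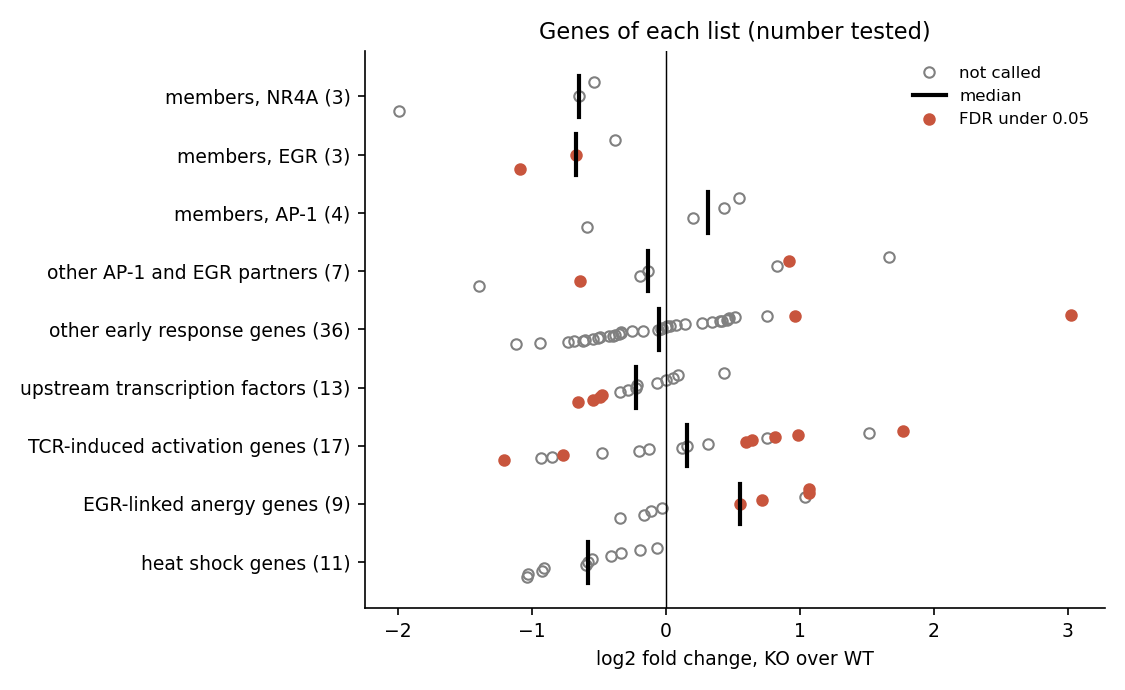
Log2 fold change of KO over WT for each tested gene of the lists, filled where the FDR was under 0.05, with the median as a black bar and the number tested in brackets. The called upstream factors lie below 0, the called anergy genes above 0, and none of the heat shock genes was called.

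Of 17 tested genes that rise with TCR stimulation, 5 rose and 2 fell in KO, or 41.2% called, with a median of 0.16. Over all genes tested, 11.6% were called higher and 7.27% lower. Il2ra, the alpha chain of the IL-2 receptor, had 837, 755 and 738 CPM in WT and 2187, 2287 and 3030.0 CPM in KO (log2 fold change 1.77, SE 0.14, FDR = 0.000880). The costimulatory receptor gene Tnfrsf9 rose by 0.99 (FDR = 0.00264) and Cd6, a modulator of TCR signaling, by 0.64 (FDR = 0.00490), both on the log2 scale. Cd83 fell by 0.77 (SE 0.13, FDR = 0.00902), with 166, 139 and 155 CPM in WT and 95.05, 68.7 and 91.2 CPM in KO. Cd40lg, the ligand by which helper T cells activate B cells, fell by 1.21 (SE 0.22, FDR = 0.0111), from 30.1, 28.9 and 47.9 CPM to 13.4, 15.7 and 14.6 CPM. The number of lower genes was 5 without KO replicate 2 and 4 with DESeq2, and that of higher genes 3 without WT replicate 2.

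Of 9 genes linked to EGR factors in T cell anergy, 4 rose and 0 fell, with 0 falls also at an unadjusted p under 0.05 and by DESeq2. This was 44.4% called, against 11.6% of all genes tested called higher and 7.27% called lower. The 4 were the cytokine signaling inhibitors Socs3 (1.07, SE 0.09, FDR = 0.000880) and Socs1 (0.55, FDR = 0.0486), Ndrg1 (0.72, FDR = 0.0134) and the ubiquitin ligase gene Rnf128 (1.07, FDR = 0.0163), all as log2 fold changes. The ubiquitin ligase genes Cblb (-0.11) and Itch (-0.03) and the diacylglycerol kinase genes Dgka (-0.34) and Dgkz (-0.17) did not pass. Socs3 had 204, 207 and 211 CPM in WT and 401, 385 and 450 CPM in KO, whereas Rnf128 was low, at 4.74 to 4.95 CPM in WT and 7.29 to 11.1 CPM in KO. The groups of Socs1 overlapped, and the count was 3 with RLE factors, library size alone, no filter or filterByExpr. It was 2 without WT replicate 1 and 1 without WT replicate 2. Rnf128 lost its call without WT replicate 1 (FDR = 0.0641), 2 (FDR = 0.0761) or 3 (FDR = 0.0662), and Ndrg1 without WT replicate 2 (FDR = 0.0508).

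The genes most like the members were sought by Pearson's r over the 6 libraries between log2 CPM and the mean of the members' standardized log2 CPM. Of those that are not members, Wsb1 (r = 0.98) and Ube2j1 (r = 0.98) came first, and Atf4 (r = 0.97), Selk (r = 0.97) and Snhg8 (r = 0.96) were among the next. Atf4, a factor of the stress response, had 179.7, 259.7 and 359 CPM in WT and 191, 178 and 177 CPM in KO. These 5 were highest in WT replicate 3 of the 6 libraries. The points share library and depth, and r is a description over 6 libraries.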

How the data were processed

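CD4+YFP+ Treg cells were sorted from spleens of 3 WT and 3 KO mice, 1 library per mouse by the study's methods. The deposited matrix holds raw counts per gene for 24421 genes. The authors made it from single-end reads of 51 bases aligned to mm10 with HISAT and counted without regard to strand, so reads of overlapping and antisense genes cannot be told apart. The test was the quasi-likelihood F test of edgeR 4.0.16 (R 4.3.3), with TMM scaling, on genes above 1 CPM in 3 or more libraries, at a Benjamini-Hochberg FDR under 0.05. Permuting 3 against 3 libraries cannot give an exact two-sided p below 0.1, so calls rest on the model across all genes. RPKM, site and motif searches used GENCODE vM21 and RefSeq. The fit was tested on simulated counts.

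The members and lists were chosen with earlier results of these data known. Of each list, the first 3 called genes by p-value in each direction are named, with genes that a sentence on a member's partner or target needs. Among the named genes, Fosl2, Egr4, Batf, Jund, Dusp1, Cd69, Zfp36, Hsph1, Hspa1a, Hspa1b, Myc, Atf4 and genes given only as not passing were picked after their values were seen. Alternatives covered scaling, DESeq2 1.42.0, the filter, the test, the threshold, a replicate block and leaving out each library. All sample columns were used, and results that need certain genes are left out.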

Additional observations from a re-analysis of the deposited data

How the results depend on the processing

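Egr2 kept its direction in all 15 alternative fits and its call in each of them and at an FDR under 0.01. Egr3 kept its direction in all 15, and lost its call without WT replicate 1, 2 or 3 and at an FDR under 0.01. RLE factors, library size alone, DESeq2, other filters, the likelihood ratio and exact tests and robust estimation left 0 members higher and 2 lower. An FDR under 0.01 gave 490 genes higher and 196 lower, and 1 member lower. It left 0 lower AP-1 and EGR partners, 1 higher early response gene, 0 lower upstream factors, 1 lower TCR-induced gene and 1 higher anergy gene. DESeq2 gave 4 lower TCR-induced genes. Without the filter 1 early response gene was higher, and DESeq2, the likelihood ratio test and the exact test each called 1 lower. Leaving out each library in turn gave between 483 and 1403 higher and between 208 and 937 lower genes, and between 1 and 2 lower members. It gave between 1 and 2 higher and 0 and 1 lower partners, between 0 and 3 higher and 0 and 2 lower early response genes, between 0 and 4 lower upstream factors, between 3 and 6 higher and 2 and 5 lower TCR-induced genes, between 1 and 4 higher anergy genes and between 0 and 3 lower heat shock genes, the 3 without KO replicate 3. The signs of 5 members that were not called turned, Nr4a1 and Junb without WT replicate 3, and Fos, Fosb and Jun without WT replicate 1. When each library was left out, their log2 fold changes lay between -1.10 and 0.53 for Nr4a1, -1.05 and 0.19 for Junb, -0.019 and 1.42 for Fos, -0.39 and 1.01 for Fosb, and -0.081 and 0.88 for Jun. The WT and KO libraries share replicate numbers, but same-numbered libraries did not deviate together (correlations of 0.08, -0.01 and -0.20), so the numbers were not taken as pairs. A replicate block gave 1061 higher and 545 lower genes, 4 lower TCR-induced genes and 2 lower members, Egr2 and Egr3. With the block, the log2 fold changes that were not called moved to 1.24 for Fos, 1.10 for Fosb, 0.81 for Jun, -1.06 for Nr4a2, -0.18 for Nr4a1 and -0.23 for Junb. Levels of members on TMM-scaled totals moved by less than 1 SD. The cause of the changed counts was not tested. With fewer libraries fewer genes passed the filter. The lowest count of a member in a library was 132, and close values such as those of Nr4a2 in WT replicate 1 and KO replicate 3 could not be ordered at this depth.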
